A study of Mus musculus with 2 samples.

Results

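The genes described here are enzymes of cholesterol synthesis and a sterol-responsive regulator of that pathway, listed as Hmgcs1, Idi1, Fdps, Fdft1, Sqle, Lss, Cyp51 and Insig1. They were chosen by name and not by a rule on their values, although earlier results of these data were known. The names were matched exactly to the gene names in the expression files. Of these 8 genes, 7 were found among 26127 genes, and the expression of Hmgcs1 is not analysed here. RNA was sequenced from mouse embryonic stem (ES) cells of strain 129S1/SvImJ, unmodified (WT) or carrying a G34R substitution in histone H3.3, as 1 library per cell line. H3.3 is encoded by H3f3a and H3f3b. WT cells are H3f3a+/+; H3f3b+/+. In G34R cells, which are a selected clone, 1 H3f3a allele carries a minigene with G34R. Cre removed a WT minigene and a neo cassette from this allele, which placed the mutant minigene behind the endogenous H3f3a promoter, and H3f3b is unmodified (H3f3a+/G34R; H3f3b+/+). Both lines were kept below 20 passages in medium with 15% heat-inactivated foetal calf serum, LIF and 0.1 mM β-mercaptoethanol. The comparison asks how the levels of these genes differ between G34R and WT cells. No value has a replicate, so no test was made, and the G34R genotype cannot be told apart from differences between clones, cultures or library preparations.

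Cells build cholesterol from acetyl-CoA through mevalonate, farnesyl pyrophosphate (FPP), squalene and lanosterol. The transcription factor SREBP2, encoded by Srebf2, switches on most genes of this route when sterols run low. SREBP2 is held in the endoplasmic reticulum by SCAP and the INSIG proteins while sterols are plentiful. When sterols fall, SCAP carries it to the Golgi, where the proteases encoded by Mbtps1 and Mbtps2 release its active part. Insig1 is itself a target of SREBP, so a gene of the brake responds to the same signal as the enzymes. FPP is a branch point that also feeds protein prenylation, dolichol and ubiquinone.

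The promoter sequences show which short motifs lie upstream of the starts of those genes that had a window. RefSeq windows on GRCm38.p6 (a different build from the mm9 used for expression) were given for 5 of the 8 genes, namely Hmgcs1, Idi1, Lss, Cyp51 and Insig1. Fdps, Fdft1 and Sqle had no entry. The 250 bases before the start are printed 5′ to 3′ on the strand of the gene for the 4 measured genes with a window. Capitals mark matches on either strand to the SRE-like letters TCACNNCA (a form of the sterol regulatory element), the CCAAT box, the GC box GGGCGG and the E-box CACGTG. The windows are chr13:8885356-8885605 (plus strand) for Idi1, chr10:76531355-76531604 (plus strand) for Lss, chr5:4104698-4104947 (minus strand) for Cyp51 and chr5:28071162-28071411 (plus strand) for Insig1.
Idi1: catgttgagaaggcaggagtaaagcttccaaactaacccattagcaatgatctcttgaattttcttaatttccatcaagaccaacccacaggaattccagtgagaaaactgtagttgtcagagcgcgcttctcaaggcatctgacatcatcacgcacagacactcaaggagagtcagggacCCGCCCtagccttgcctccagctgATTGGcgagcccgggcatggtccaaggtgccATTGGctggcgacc
Lss: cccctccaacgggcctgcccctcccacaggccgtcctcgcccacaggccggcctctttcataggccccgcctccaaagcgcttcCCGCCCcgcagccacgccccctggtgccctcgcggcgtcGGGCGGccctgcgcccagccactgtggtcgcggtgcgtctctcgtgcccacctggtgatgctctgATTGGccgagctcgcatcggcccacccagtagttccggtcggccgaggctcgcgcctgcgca
Cyp51: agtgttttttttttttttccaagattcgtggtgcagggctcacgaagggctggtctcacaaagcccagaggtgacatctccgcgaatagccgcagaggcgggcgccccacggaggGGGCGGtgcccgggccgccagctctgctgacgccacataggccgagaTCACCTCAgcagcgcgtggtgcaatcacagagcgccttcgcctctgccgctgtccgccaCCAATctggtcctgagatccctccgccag
Insig1: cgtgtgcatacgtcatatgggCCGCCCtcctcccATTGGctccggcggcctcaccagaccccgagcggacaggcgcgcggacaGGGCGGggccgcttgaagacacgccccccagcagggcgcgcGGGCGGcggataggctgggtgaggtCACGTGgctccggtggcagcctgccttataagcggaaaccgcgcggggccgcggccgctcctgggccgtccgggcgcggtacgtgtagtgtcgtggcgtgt

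CCAAT was found in the windows of all 5 genes, against 33.8% of 32851 RefSeq windows of the same length. GGGCGG was likewise found in all 5, against 32.7% of windows. TCACNNCA was found in 11.4% of windows and in 2 of the 5, as TCACCTCA starting 88 bases before the start of Cyp51 and as TCACCCCA starting 137 bases before that of Hmgcs1. CACGTG was found in 6.02% of windows and, among the 5, in Insig1 alone, starting 101 bases before its start. It was also found in a window of Scap and of the cholesterol synthesis genes Hsd17b7, Sc5d and Dhcr7. CACGTG therefore does not set Insig1 apart from the enzymes of the route. These motifs do not overlap one another in the windows printed. A match describes the letters and not binding, and the absence of a match says only that these letters are not in the window.

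The files give RPKM, reads scaled to transcript length and to library size, so comparisons of levels between genes depend on the length used. Library sizes had to be inferred, and the RPKM steps of short genes gave estimates of 88.4 M reads for the WT library and 72.7 M for the G34R library. All 8 ES cell markers examined had at least 1 RPKM in both libraries. Nanog was lower in G34R cells, at 127.07 RPKM in WT and 52.24 RPKM in G34R cells. Klf4, at 25.14 and 43.71 RPKM, and Utf1, at 61.89 and 108.56 RPKM, were higher. The other ES cell markers were within 1.5-fold. Markers of feeder fibroblasts summed to 1.48 RPKM in WT and 0.94 in G34R cells, with Postn, Dcn and Lum at 0 in both. Markers of visceral endoderm summed to 2.86 and 2.78, with Afp at 0 in both. Single visceral endoderm markers differed in both directions, with Hnf4a at 0.56 and 0.06 RPKM and Cubn at 0.93 and 1.52 RPKM. H3f3a, the targeted gene, was at 8.17 RPKM in WT and 4.89 in G34R cells. Chromosome 8 stood apart, with a median log2 (G34R/WT RPKM) of 0.36 over 595 genes, and so did the Y chromosome, with -3.91 over 5 genes. The X chromosome had a median of -0.21 over 363 genes. The medians of the chromosomes that hold the 7 measured genes lay between -0.10 and 0.00. A library's RPKM are relative to its own total, so absolute amounts of RNA are not measured. Because RNA came from whole cultures, fewer expressing cells and less RNA per cell cannot be told apart.

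All 6 measured enzymes were lower in the G34R library than in the WT library, and Insig1 was higher. The summed level of the 6 enzymes was 126.1 RPKM in WT and 100.1 RPKM in G34R cells, a difference of -20.6%, while Insig1 was at 20.8 and 23.5 RPKM, a difference of 13.0%. The differences were small, and none of the 7 genes was past 1.5-fold in either direction. Of 10728 genes with at least 1 RPKM in either library, 14.1% were more than 1.5-fold lower and 11.3% more than 1.5-fold higher in G34R cells. Past 2-fold, the shares were 6.42% lower and 4.09% higher. A ratio below 0 on the log2 scale was itself common, at 54.8% of all genes, against 45.0% above 0. The median log2 ratio was -0.27 over the 6 enzymes, -0.25 over the 7 genes with Insig1, and -0.05 over all 10728 genes.

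**Figure D1:**
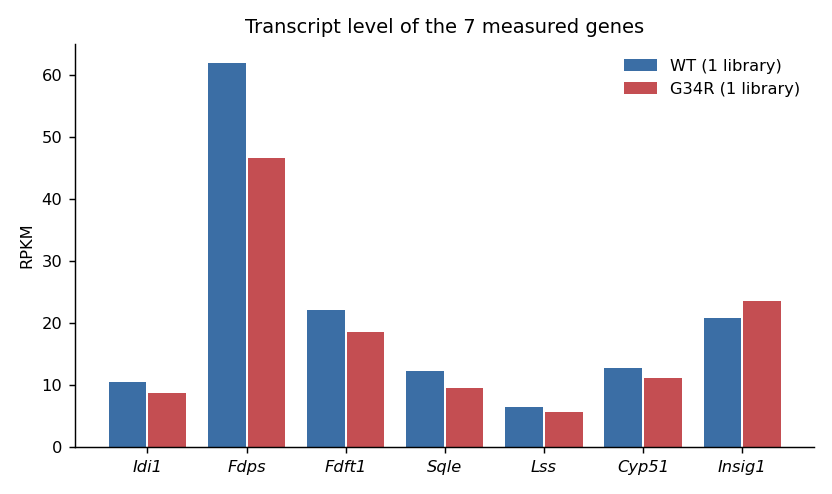
RPKM of the 7 measured genes in the WT and G34R libraries, 1 library per cell line, so there are no error bars. The 6 enzymes are lower in the G34R library and Insig1 is higher, and Fdps is the highest gene in both libraries.

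Of the 7 measured genes, Fdps had the highest level and the lowest ratio. Fdps encodes farnesyl pyrophosphate synthase, which makes FPP, and lies on the minus strand of chromosome 3 at chr3:88897514-88905881 in mm9 (ENSMUSG00000059743, 10 exon blocks after merging transcripts). It was at 61.98 RPKM in WT and 46.7 RPKM in G34R cells. The log2 ratio was -0.41, with a 95% counting interval of -0.46 to -0.35. Such intervals come from estimated reads and cover counting error only, not differences between cultures or libraries. As low a ratio or lower was seen in 21.5% of all genes. The 51 other genes within 1 Mb of Fdps had a median log2 ratio of 0.08, and 48 of them were higher than Fdps. An annotated U6 snRNA lies within Fdps on the same strand.

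Idi1 encodes isopentenyl-diphosphate isomerase, which supplies one of the building blocks joined by FPP synthase. It lies on the plus strand at chr13:8884852-8891641 in mm9 (ENSMUSG00000058258, 5 exon blocks). It was at 10.52 RPKM in WT and 8.65 RPKM in G34R cells, a difference of -17.8%. The log2 ratio was -0.28 (95% counting interval -0.37 to -0.20), and 30.0% of all genes were as low or lower. Its 6 neighbours within 1 Mb had a median of -0.06, and those within 0.5 Mb had -0.19.

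The enzymes that lead from FPP to lanosterol were all lower in the G34R library. Fdft1 encodes squalene synthase, the first enzyme committed to sterols, and lies on the minus strand at chr14:63763990-63796630 (ENSMUSG00000021273, 8 exon blocks). Fdft1 was at 22.12 RPKM in WT and 18.62 RPKM in G34R cells, and its log2 ratio was -0.25 (95% counting interval -0.31 to -0.19). Its last bases overlap the end of Ctsb, a gene on the opposite strand that was at 8.08 RPKM in WT and 12.02 in G34R cells. Reads were counted by strand. Sqle encodes squalene epoxidase, which adds the first oxygen to squalene and is one of the slow steps of the route. It lies on the plus strand at chr15:59146632-59162747 (ENSMUSG00000022351, 11 exon blocks). Sqle was at 12.29 RPKM in WT and 9.47 RPKM in G34R cells, a difference of -22.9%. Its log2 ratio of -0.38 (95% counting interval -0.44 to -0.32) was the lowest of the 7 genes after that of Fdps, and 9 of its 10 neighbours within 1 Mb were higher.

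Lss encodes lanosterol synthase, which folds oxidosqualene into the ring system, and lies on the plus strand at chr10:75994333-76019883 (ENSMUSG00000033105, 21 exon blocks). It had the lowest RPKM of the 7 genes, at 6.39 in WT and 5.6 in G34R cells. Its log2 ratio was -0.19 (95% counting interval -0.25 to -0.13), beside a median of -0.11 over 27 neighbours, of which 12 were lower than Lss and 15 higher. The merged exons of Lss span 10787 bp while its longest coding transcript has 4667 bp. Its estimated reads, the width of this interval and its level relative to other genes are therefore uncertain. For Sqle the 2 lengths are 5546 bp and 2758 bp, with the same uncertainty. Cyp51 encodes lanosterol 14α-demethylase, which opens the conversion of lanosterol to cholesterol, and lies on the minus strand at chr5:4081145-4104746 (ENSMUSG00000001467, 10 exon blocks). It was at 12.81 RPKM in WT and 11.1 RPKM in G34R cells, and its log2 ratio was -0.21 (95% counting interval -0.27 to -0.14). Its surroundings were lower still in the G34R library, with a median of -0.39 over 9 neighbours, 8 of them below Cyp51. The Cyp51 ratio therefore lay above the median of its neighbours. Within 0.5 Mb the same held for Lss, whose neighbours then had a median of -0.30.

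Insig1, the brake on SREBP processing, was the exception among the 7 genes. It lies on the plus strand of the same chromosome as Cyp51, at chr5:28397952-28405201 (ENSMUSG00000045294, 5 exon blocks). Insig1 was at 20.8 RPKM in WT and 23.5 RPKM in G34R cells, and its log2 ratio was 0.18 (95% counting interval 0.12 to 0.23). As high a ratio or higher was seen in 30.3% of all genes. Only 4 neighbours within 1 Mb had at least 1 RPKM, with a median of -0.19, 2 of them below Insig1 and 2 above.

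**Figure D2:**
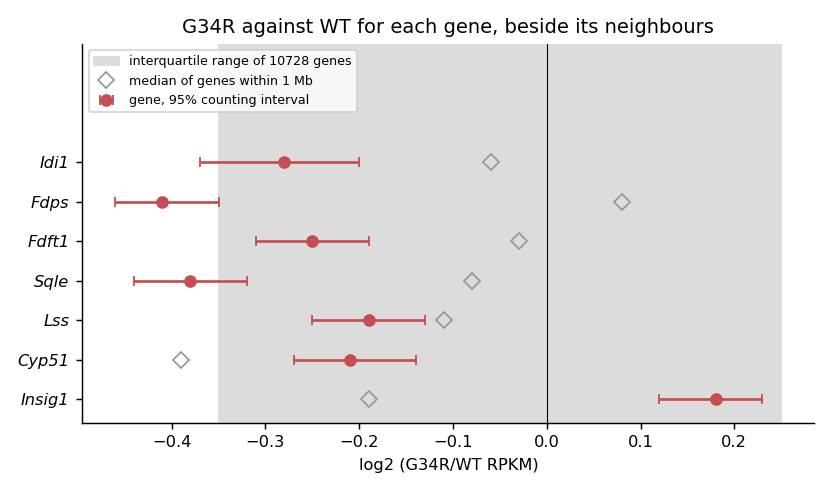
The log2 (G34R/WT RPKM) of each measured gene (filled circles, with the 95% counting interval) beside the median of the other genes within 1 Mb (open diamonds). The grey band is the interquartile range of all 10728 genes. The 6 enzymes lie left of 0, of which Cyp51 lies right of its neighbours at this distance (within 0.5 Mb Lss does too), and Insig1 lies right of 0.

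The order of the 7 levels was nearly the same in both libraries. In WT cells it ran from Fdps through Fdft1, Insig1, Cyp51, Sqle and Idi1 to Lss, and in G34R cells Insig1 stood above Fdft1. Cyp51 and Sqle lay close together in WT cells, at 12.81 and 12.29 RPKM, and with 1 library their order cannot be set against a spread. Fdps was 9.7 times the level of Lss in WT and 8.34 times in G34R cells. Fdps alone made up 42.2% of the summed RPKM of the 7 genes in WT and 37.8% in G34R cells, while the share of Insig1 was 14.2% and 19.0%. Only 3.9% of the genes with at least 1 RPKM lay above Fdps in WT cells and 5.55% in G34R cells, whereas 44.3% and 48.8% lay above Lss. The order, ranks and multiples given here rest on the transcript length used, which is uncertain for Lss and Sqle.

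Ratios of Insig1 to each enzyme do not depend on how the libraries were scaled, since both values come from the same library. The ratio of Insig1 to Sqle was 1.69 in WT and 2.48 in G34R cells, and that of Insig1 to Fdps was 0.336 and 0.503. The ratio of Insig1 to Lss was 3.26 and 4.2, and that of Insig1 to Cyp51 was 1.62 and 2.12. Insig1 to Idi1 stood at 1.98 and 2.72, and Insig1 to Fdft1 at 0.94 and 1.26. In each of the 6 pairs, Insig1 was higher relative to the enzyme in the G34R library. This direction follows from the ratios given above, and the 6 pairs share the same Insig1 values, so they are not separate results.

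Several of these genes have near-identical copies elsewhere in the genome, and a read from such a stretch can be placed on either. The longest coding transcript of each gene was cut into overlapping stretches of 50 bases, the read length, and searched in mm9, a check added after the values were seen. For Idi1, 84.6% of 2817 stretches were also found outside the gene, on 5 other chromosomes. For Fdps the share was 63.2% of 1184 stretches, on 6 other chromosomes. It was 32.5% for Insig1, on chromosome 3, and 22.2% for Fdft1, elsewhere on chromosome 14. Levels and ratios of these 4 genes are uncertain to that extent. Sqle and Lss had no such stretch and Cyp51 had 0.515%. The log2 ratios of these 3 genes were -0.38, -0.19 and -0.21, with a median of -0.21.

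The wider pathway did not share the direction of the 6 enzymes throughout. Of 21 listed genes of cholesterol synthesis, 20 were measured, of which 12 were lower and 8 higher in the G34R library, with a median log2 ratio of -0.17. None was past 1.5-fold. The 14 genes left without the 6 enzymes above were 6 lower and 8 higher, with a median of 0.06, and their sum was 187.5 RPKM in WT and 193.9 RPKM in G34R cells. Dividing the route by step, done after the values were seen, gave 5 lower and 2 higher from acetyl-CoA to FPP (median -0.28), 3 lower and 0 higher from FPP to lanosterol (median -0.25), and 4 lower and 6 higher from lanosterol to cholesterol (median 0.06).

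**Figure D3:**
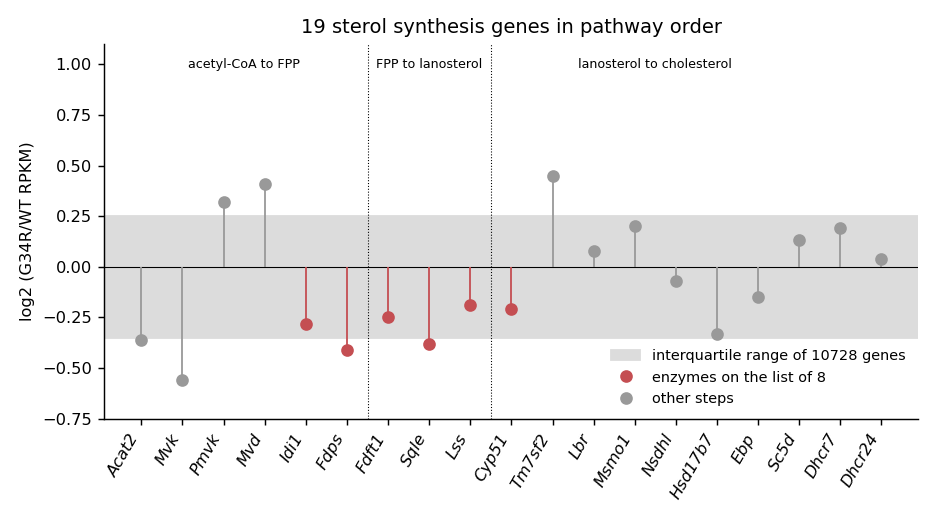
The log2 (G34R/WT RPKM) of 19 of the 20 measured cholesterol synthesis genes in the order of the pathway, with the 6 enzymes on the list of 8 in red and the other steps in grey. The grey band is the interquartile range of all 10728 genes. Ratios below 0 predominate up to Cyp51, and ratios from Tm7sf2 onwards lie on both sides of 0.

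Mvk, encoding mevalonate kinase, had the lowest ratio of the route, at 6.27 RPKM in WT and 4.24 RPKM in G34R cells (log2 ratio -0.56), beside a median of 0.00 over 39 neighbours. The steps around Mvk lay on both sides of 0. Pmvk and Mvd, which encode the next enzymes after mevalonate kinase, had ratios of 0.32 and 0.41. They and Msmo1 were named after their values were seen. Mvd lies on chromosome 8, where its 31 neighbours had a median of 0.54, and the part of the chromosome in this value was not tested. The highest ratio of the route was that of Tm7sf2, one of a pair of genes for sterol C14 reduction, at 2.33 RPKM in WT and 3.18 RPKM in G34R cells (log2 ratio 0.45). Lbr, a nuclear envelope protein that catalyses the same reaction, was at 41.4 and 43.71 RPKM (log2 ratio 0.08). Msmo1 (listed in the files as Sc4mol), which removes methyl groups from sterol intermediates, had a ratio of 0.20 and is also on chromosome 8, where its 4 neighbours had a median of 1.33, a part that was likewise not tested.

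The genes that control SREBP had the opposite balance to the enzymes. Of 7 measured, 6 were higher and 1 lower in the G34R library, with a median log2 ratio of 0.23, or 0.25 over the 6 genes other than Insig1. Srebf2 was at 23.02 RPKM in WT and 30.81 RPKM in G34R cells, with a log2 ratio of 0.42 (95% counting interval 0.38 to 0.46), and 16.6% of all genes were as high or higher. Srebf1, which encodes the related factor that acts more on fatty acid genes, was at 8.68 and 10.4 RPKM (log2 ratio 0.26). Scap was at 5.94 and 6.98 RPKM (0.23) and Insig2 at 1.82 and 2.09 RPKM (0.20). These 4 genes shared their direction with Insig1.

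The genes of the proteases that release SREBP had unlike ratios and lie on chromosomes with unlike medians. Mbtps1 was at 14.26 RPKM in WT and 19.33 RPKM in G34R cells (log2 ratio 0.44), and lies on chromosome 8 among 12 neighbours with a median of 0.80. The part of the chromosome in this value was not tested. Mbtps2 was at 2.68 and 2.6 RPKM (log2 ratio -0.04). It lies on the X chromosome, which had a median of -0.21, and its 2 neighbours had a median of -0.37. The part of the 2 chromosomes in the difference between these ratios was not tested. None of the 7 genes was past 1.5-fold.

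Genes of sterol uptake and transport, several of them SREBP2 targets, lay on both sides of 0. Of 8 genes with at least 1 RPKM in either library, 3 were lower and 5 higher in the G34R library, with a median log2 ratio of 0.17. Some of the 5 reached 1 RPKM only in the G34R library. Stard4, a sterol carrier, had the lowest ratio, at 6.42 RPKM in WT and 3.66 RPKM in G34R cells (-0.81). Npc1, a lysosomal cholesterol exporter, was past 1.5-fold in the other direction, at 2.18 and 4.05 RPKM (0.89), and was named after its values were seen. Its partner Npc2 was at 14.5 and 13.2 RPKM (-0.14).

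Fatty acid genes, many of which respond to SREBP1, were more often higher in the G34R library, with 8 higher and 4 lower and a median log2 ratio of 0.18. Their summed level was 266.5 RPKM in WT and 323.0 RPKM in G34R cells. Scd1, a stearoyl-CoA desaturase, had the highest ratio at 13.75 and 27.13 RPKM (0.98) and was below the 2-fold limit. Its relative Scd2 was at 82.6 and 95.85 RPKM (0.21). Acly, which makes cytosolic acetyl-CoA, was at 60.86 and 66.94 RPKM (0.14), and Me1, which supplies NADPH, had the lowest ratio at 4.69 and 3.54 RPKM (-0.41).

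Genes listed for isoprenoid branches other than sterol synthesis had a median log2 ratio of -0.31, with 8 lower and 4 higher in the G34R library. Centred on the median of each gene's own chromosome, this median was -0.20. Their sum was 114.3 RPKM in WT and 88.72 RPKM in G34R cells. Rabggtb, a subunit of the enzyme that prenylates Rab proteins, had the lowest ratio at 33.41 and 20.41 RPKM (-0.71). The subunits of farnesyltransferase, Fnta and Fntb, were at 26.21 and 18.89 RPKM (-0.47) and at 11.11 and 7.14 RPKM (-0.64). Fntb was named after its values were seen, as the other gene of the list past 1.5-fold. Dhdds, which starts dolichol synthesis, had the highest ratio at 2.48 and 3.07 RPKM (0.31). Genes of sterol efflux and storage had 1 lower and 4 higher among 5 with at least 1 RPKM in either library. Of the 4, Abca1 reached 1 RPKM only in the G34R library. Soat2, at 0.93 RPKM in WT and 0.4 RPKM in G34R cells, was just under this limit and is not counted. The median of this list was 0.16, but 0.00 with no filter. Abca1, a cholesterol exporter, was at 0.78 RPKM in WT and 2.44 RPKM in G34R cells (1.65), and Soat1, which esterifies cholesterol for storage, at 3.14 and 5.03 RPKM (0.68). The lowest was Abcg1, another exporter, at 3.22 and 2.44 RPKM (-0.40), and Nr1h2, a sterol-activated nuclear receptor, was at 8.69 and 9.69 RPKM (0.16).

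**Figure D4:**
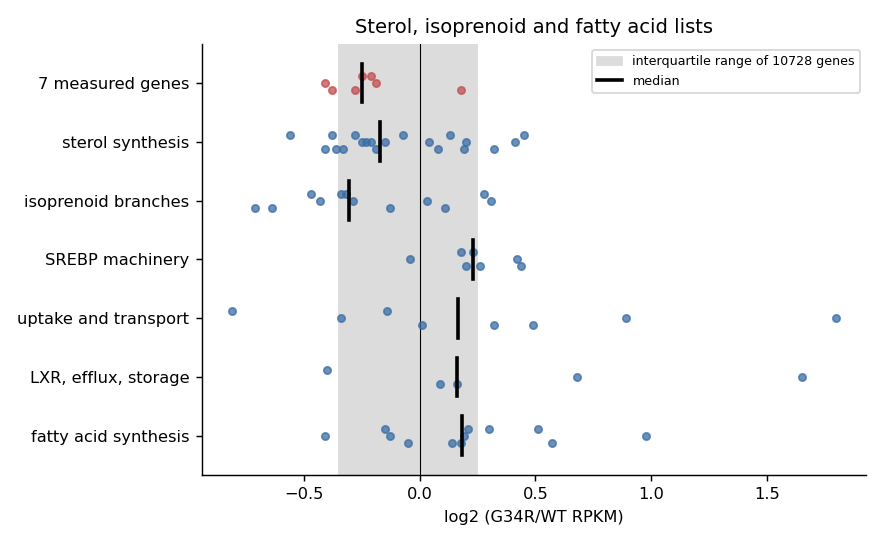
The log2 (G34R/WT RPKM) of each gene with at least 1 RPKM in either library, by list, with black bars for list medians and the interquartile range of all 10728 genes as a grey band. The medians are -0.25 for the 7 measured genes, -0.17 for sterol synthesis, 0.23 for the SREBP machinery and 0.18 for fatty acid synthesis, and single genes of every list overlap those of the others.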

How the data were processed

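Total RNA (500 ng) was made into stranded libraries with 12 amplification cycles and read as 50 bp single-end reads. The authors aligned reads to mm9 with STAR 2.4.2a, imported primary alignments into Seqmonk, counted them by strand over mRNA features with isoforms merged, and deposited RPKM corrected for transcript length. No table holds raw counts, and 0 sample columns were left unused. From these values log2 (G34R/WT RPKM) was calculated here, with values under 0.01 RPKM set to 0.01, and summaries over genes used those with at least 1 RPKM in either library. Library sizes were inferred from the RPKM steps of genes under 800 bp with fewer than 6 reads, of which 97.4% (WT) and 98.5% (G34R) of values lay within 0.25 read of a whole number. Reads per gene follow from RPKM, this depth and the merged exon length in GENCODE vM1, and give counting intervals. One read on 1 kb is worth 0.0113 RPKM (WT) or 0.0137 RPKM (G34R).

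Groups followed the sample labels. With 1 library each, no test was made. The genes and lists were chosen with earlier results of these data known. The genes named are the 8 chosen, all genes of the SREBP machinery, any sterol synthesis gene past 1.5-fold (there was none) and, in each list other than that machinery, the extremes in ratio and the 2 with the largest mean RPKM. Pmvk, Mvd, Msmo1, Npc1 and Fntb fall outside this rule. So do the genes under 1 RPKM in both libraries, the cell type markers and the H3.3 genes. Hsd17b7, Sc5d and Dhcr7, named for a promoter motif, are outside it too. The same holds for genes that overlap a chosen gene or hold copies of its sequence. Some genes that the rule covers are not reported here, although list counts and medians include them. Alternatives were other pseudocounts, filters, scalings, folds and windows. The scripts were tested on simulated data. Python 3.11.15, NumPy 2.4.6, pandas 2.3.3, SciPy 1.17.1 and matplotlib 3.10.9 were used. ChIP-seq was not used here.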

Additional observations from a re-analysis of the deposited data

How the results depend on the processing

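No paired analysis was possible because each cell line has 1 library, and for the same reason no library could be left out. The log2 ratios of the 7 measured genes kept their sign in all 49 alternative values, ranging from -0.28 to -0.18 for Idi1, -0.41 to -0.34 for Fdps, -0.25 to -0.19 for Fdft1, -0.38 to -0.32 for Sqle, -0.19 to -0.11 for Lss, -0.21 to -0.12 for Cyp51 and 0.17 to 0.27 for Insig1. Their median ranged from -0.25 to -0.18, which includes the value over Sqle, Lss and Cyp51 alone, an alternative chosen after seeing the data. The median over sterol synthesis ranged from -0.19 to -0.11 and that over the SREBP machinery from 0.20 to 0.29. The median over the isoprenoid branches ranged from -0.32 to -0.20. The uptake list changed sign, to -0.24 with at least 5 RPKM, which leaves fewer genes. The median over sterol efflux and storage ranged from 0.00 with no filter to 0.42 with at least 5 RPKM. Within 0.5 Mb the neighbours of Idi1 had a median of -0.19, those of Fdft1 0.11 and those of Lss -0.30. Within 2 Mb those of Fdft1 had -0.22, those of Insig1 -0.56 and those of Cyp51 -0.26. How far Idi1 and Fdft1 lay below their neighbours therefore depended on the window. With a pseudocount of 1, the shares of all genes past 1.5-fold were 9.09% lower and 6.89% higher. Raising the threshold to 3-fold left 0 of the 7 genes past it. A pseudocount added to both libraries cannot change the sign of a ratio. Rescaling whole libraries moved the ratios by less than the smallest of the 7, so the kept signs were largely fixed in advance. Agreement between settings says nothing of the spread between cultures, which these files do not measure.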

Other observations

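Genes of the lists that were under 1 RPKM in both libraries were left out of the medians. Vldlr, a lipoprotein receptor, was at 0.21 RPKM in WT and 0.23 RPKM in G34R cells, and Nr1h3, a sterol-activated receptor related to Nr1h2, at 0.1 and 0.09 RPKM. Abcg5 and Abcg8, which form a sterol exporter of liver and gut, were listed at 0 in both. Soat2, the relative of Soat1, was at 0.93 and 0.4 RPKM, and Acss2, which makes acetyl-CoA from acetate, at 0.79 and 0.29 RPKM. The copies of Insig1, Idi1 and Fdft1 sequence lay in no other named gene of the files, whereas stretches of Fdps lay within Adcy2 (0.26 RPKM in WT and 0.06 in G34R cells), Gm14661 (0.36 and 0) and 9130014G24Rik (0 in both).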
